A study of Danio rerio with 2 samples.

Results

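The genes described here are 6 signalling genes of the interferon, STAT and NF-kB pathways in zebrafish (Danio rerio) of the AB background, measured in whole embryos 28 hours post fertilization. They were chosen by name, as the rows annotated as irf1b, irf9, stat3, nfkbiaa, cxcl18b and interferon gamma receptor 1, and make up 6 of the 1287 genes in the deposited table. One library came from WT embryos and the other from ezh2-/- embryos, so each genotype was represented by 1 library. Ezh2 is the enzyme of Polycomb repressive complex 2, which methylates histone H3 and holds genes silent. The sources used here do not give the ezh2 allele or the number of embryos pooled for a library. The targeted gene was not among the listed genes and was not analysed here, and gives no check of the labels.

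Interferon gamma signals through a receptor pair on the cell surface to Janus kinases, which phosphorylate STAT proteins. Activated STATs, alone or with Irf9, then enter the nucleus and switch on target genes, among them further interferon regulatory factors such as Irf1. Stat3 is the main STAT downstream of cytokine receptors that share the gp130 chain (il6st). NF-kB is held in the cytoplasm by IkB inhibitors such as the product of nfkbiaa, which NF-kB itself induces as negative feedback. Chemokines such as Cxcl18b are secreted proteins that attract leukocytes.

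The table is a selection made by the authors. Every gene in the authors' deposited table has an FDR of 0.00996 or less and a log2 fold change of 1 or more in size. Presence in the table, and a fold of at least 2, is therefore set by that selection, and only the direction and the size of a difference are read here. Counts of the listed genes summed to 799647 for WT and 764775 for mutant embryos, which covers the selected genes alone and is not the depth of the libraries. With 1 library per genotype there was no replicate error and no test, and the values describe these libraries. Brackets hold 95% exact (Clopper-Pearson) intervals of a ratio of counts, which cover counting error only: without molecular identifiers, several reads can stem from 1 molecule. RNA came from whole embryos, so a change in the number of cells of a type and a change in RNA per cell cannot be told apart.

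All 6 genes had higher counts in the mutant than in the WT library. Over the whole table of 1287 genes, 68.1% lay 2-fold or more above WT, 31.9% lay 2-fold or more below it, and 22.8% lay 4-fold or more above it. Of the 6, all were at least 2-fold and 3 at least 4-fold higher. Their median log2 fold change was 2.04, against 1.31 over all listed genes and 1.61 over those listed as higher. Since the genes were chosen with earlier results known, these shares are a description. On a scale that sets the median of all listed genes to 0, a log2 shift of 1.31, the other 4 stay higher while nfkbiaa and stat3 lie slightly below WT. On that scale as many listed genes lie above 0 as below it by construction.

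The receptor gene stood near the top of the 6. Interferon gamma receptor 1 (gene1095), which encodes the ligand-binding chain of the receptor, had 23 WT reads and 120 mutant reads. That was a 5.27-fold difference (3.35 to 8.63), at rank 201 of 1287 by log2 fold change. The product name fits both zebrafish genes ifngr1 and ifngr1l, and which of them this locus is was not resolved.

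The interferon regulatory factor genes were both higher. irf1b (gene34143), a zebrafish counterpart of the interferon-induced activator IRF1 of mammals, had 20 WT reads and 132 mutant reads. Its 6.67-fold difference (4.15 to 11.3) was the largest of the 6, at rank 150 of 1287. irf9 (gene22717), which encodes a DNA-binding partner of STAT proteins in mammalian type I interferon signalling, had 128 WT reads and 442 mutant reads. It was 3.49-fold higher (2.86 to 4.28), at rank 363.

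By count, stat3 (gene3734) was the most abundant of the 6 and differed least. It had 857 WT reads and 1865 mutant reads, a 2.20-fold difference (2.03 to 2.39) at rank 768. The NF-kB inhibitor gene nfkbiaa (gene31742) had 79 WT reads and 181 mutant reads. It was 2.31-fold higher (1.77 to 3.05), at rank 718, and it alone of the 6 had an interval that reached below 2-fold. The chemokine gene cxcl18b (gene966) had the fewest counts, 14 for WT and 69 for mutant embryos, and was 4.98-fold higher (2.78 to 9.58), at rank 214.

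**Figure D1:**
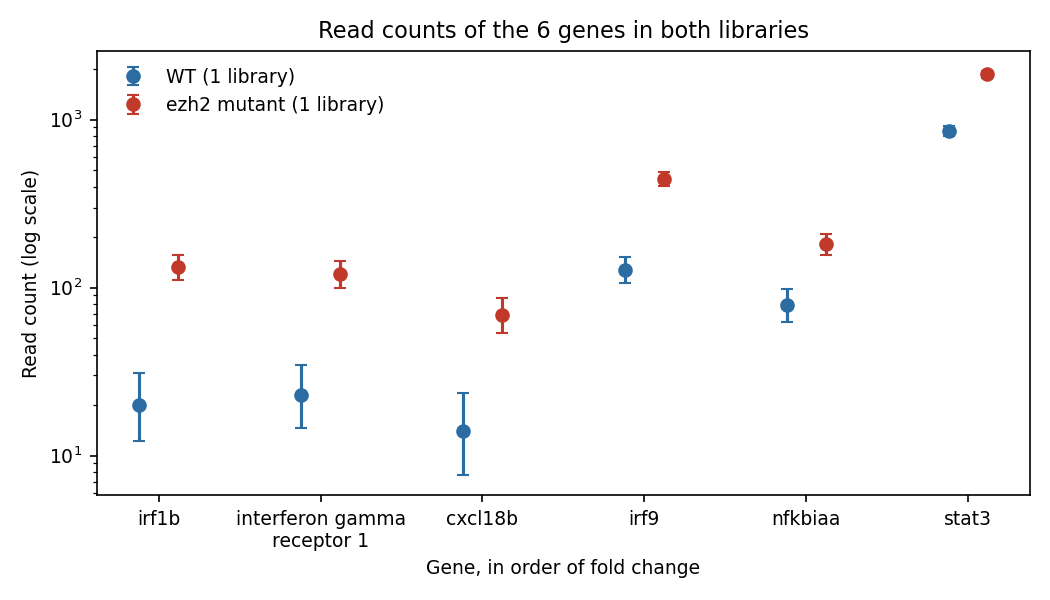
Read counts (log axis) of the 6 genes in the WT library (blue) and the ezh2 mutant library (red), with 95% exact Poisson intervals that cover counting error only. Each gene lies higher in the mutant library, from 14 against 69 for cxcl18b to 857 against 1865 for stat3.

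The 6 folds fell into a high and a low end with no clear break. Of the 15 pairs of genes, 9 had overlapping intervals and 6 did not. The separate pairs were irf1b and interferon gamma receptor 1 each against nfkbiaa and stat3, and cxcl18b and irf9 each against stat3. Neighbours in the order of folds all overlapped.

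A low count needs a larger fold to be selected, so each gene was also set beside listed higher genes whose mean count lay within 25% of its own. Near the mean count of irf1b, 76, there were 112 such genes with a median log2 fold change of 1.69, and 8 of them had a larger fold than the 2.71 of irf1b. Near interferon gamma receptor 1 there were 108 with a median of 1.71, and 12 exceeded its 2.37. The 108 near irf9 had a median of 1.33, and 25 exceeded its 1.80. cxcl18b, at 2.28, lay closer to the middle of its 94, whose median was 2.09, with 39 above it. The remaining genes lay in the lower part: 108 of the 129 near nfkbiaa exceeded its 1.21, and 19 of the 28 near stat3 exceeded its 1.14. Among genes of like count, irf1b, interferon gamma receptor 1 and irf9 therefore had larger folds than most, while nfkbiaa and stat3 had smaller folds than most.

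**Figure D2:**
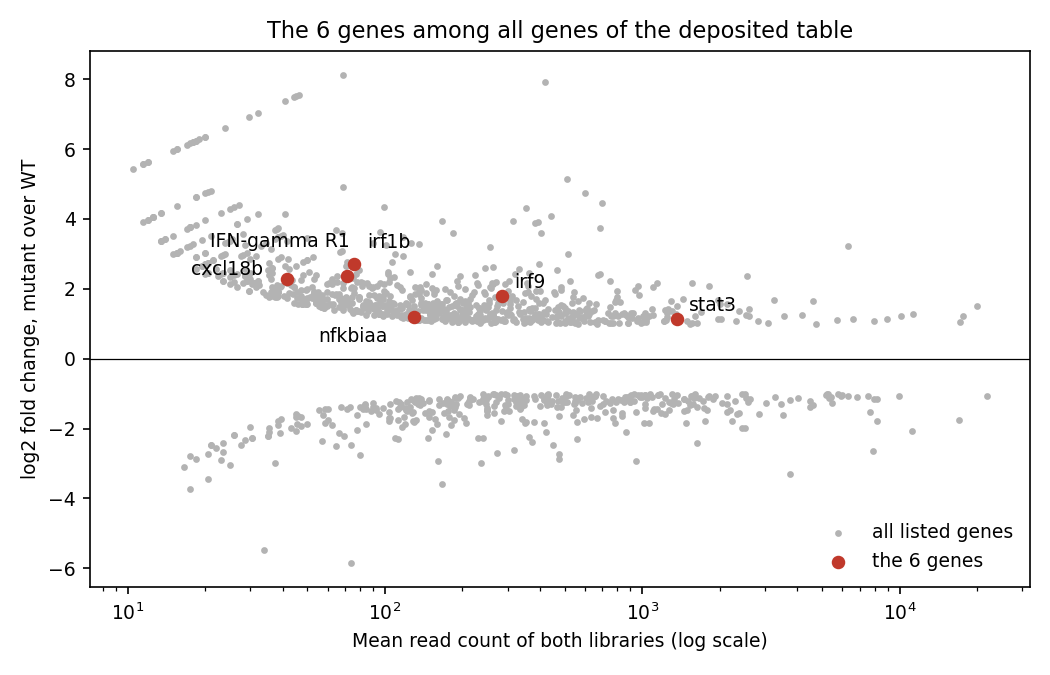
Log2 fold change of mutant over WT against the mean read count of both libraries (log axis) for all 1287 listed genes (grey) and the 6 genes (red). The empty band around 0 is the authors' selection and widens at low counts; irf1b, at 2.71, stands in the upper part of the genes of its count, and stat3, at 1.14, lies at the edge of the band.

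The FPKM values, which the authors scaled for transcript length and library size, allow levels to be compared between genes. In the WT library stat3 had the highest level of the 6 at 7.94 FPKM, followed by irf9 at 3.81, nfkbiaa at 2.82 and cxcl18b at 1.77. Interferon gamma receptor 1 at 0.708 FPKM and irf1b at 0.577 FPKM were the lowest. In the mutant library the order was stat3 at 20.2, irf9 at 13.7, cxcl18b at 8.97, nfkbiaa at 6.27, interferon gamma receptor 1 at 3.88 and irf1b at 3.71 FPKM. cxcl18b thus passed nfkbiaa, although their intervals scaled from the counts, 6.98 to 11.3 and 5.39 to 7.25 FPKM, overlapped; of the other neighbours in the mutant library, the intervals of interferon gamma receptor 1 and irf1b alone overlapped. In the WT library the intervals of neighbours also overlapped for nfkbiaa with cxcl18b, nfkbiaa with irf9, cxcl18b with interferon gamma receptor 1, and interferon gamma receptor 1 with irf1b. The range from the highest to the lowest of the 6 narrowed from 13.8-fold among WT values to 5.43-fold among mutant values. The median over all listed genes was 2.41 FPKM for WT and 4.14 FPKM for mutant embryos; 3 of the 6 lay above it in WT and 4 in mutant embryos.

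**Figure D3:**
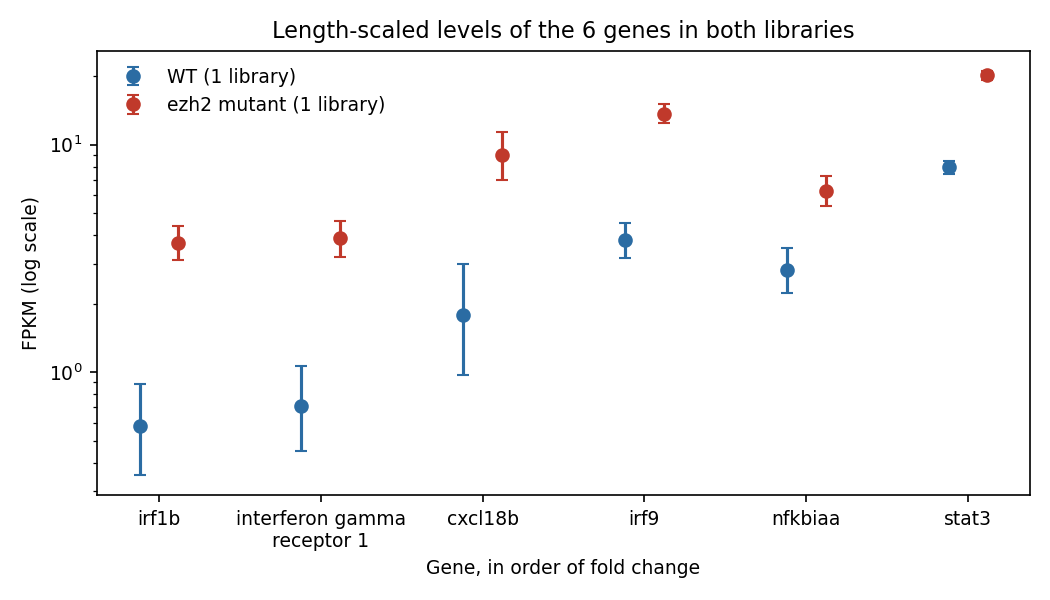
FPKM (log axis) of the 6 genes in the WT (blue) and ezh2 mutant (red) library; bars are 95% Poisson intervals of the counts scaled to FPKM. The genes with the lowest WT levels, irf1b and interferon gamma receptor 1 at 0.577 and 0.708 FPKM, differ most, and stat3, the highest at 7.94 FPKM in WT, stands at 20.2 FPKM in the mutant library.

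Counts and FPKM gave like folds for 5 of the 6 genes. The FPKM ratio was 6.44 for irf1b, 5.48 for interferon gamma receptor 1, 5.06 for cxcl18b, 3.60 for irf9 and 2.23 for nfkbiaa, each within the interval of its count ratio. For stat3 the FPKM ratio of 2.54 lay above the interval of the count ratio, so by FPKM nfkbiaa differed least of the 6. One FPKM of stat3 stood for 108 counts in the WT library but for 92.5 in the mutant library, a ratio of 0.858, where the ratio over well-counted genes was 0.978. A shift farther from the median was seen in 185 of 1263 genes, so it was not peculiar to stat3, and its cause was not tested.

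Genes of the same pathways were then read from 6 gene lists with 275 genes, of which 25 were found in the table by symbol. Only 572 of the 1287 listed genes have a symbol, so a list gene at another locus was not matched. The other 250 list genes were not analysed here. Of the 25, 24 (96%) were at least 2-fold higher, beside the 68.1% over the whole table, and 11 (44%) at least 4-fold higher, beside 22.8%. Their median log2 fold change was 1.88. Without the 6 genes above, 18 of 19 were higher, and the median was again 1.88. The lists were written with earlier results of these data known, so these shares are a description. The intervals of 19 of the 25 lay above 2-fold. No such share over the whole table is set beside this count, so it describes these genes only. With the median of all listed genes set to 0, 20 of the 25 stay higher, and stat3, stat5a, nfkbiaa and nfkbiz join ccl25b below WT. By construction, as many listed genes lie above 0 as below it on that scale. Among the 20, rel and traf2b, at log2 fold changes of 1.319 and 1.315, barely exceed the median of 1.306.

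Of 14 genes on the list of interferon ligands and receptors, 2 were found in the table. Both were receptor genes and both were higher, beside 68.1% of the whole table. Beside interferon gamma receptor 1, the class II cytokine receptor gene crfb12 (gene14347) had 61 WT reads and 245 mutant reads, a 4.06-fold difference (3.05 to 5.46). Its product name, cytokine receptor family member B12, does not name interferon as the ligand. No interferon ligand gene was found in the table by symbol. Of 12 interferon regulatory factor genes read here, 3 were found in the table and each was higher, beside the same 68.1% (median log2 fold change 2.23). irf3, which encodes a factor that acts downstream of viral nucleic acid sensors, had 8 WT reads and 39 mutant reads (4.92-fold higher, 2.27 to 12.2).

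Of 55 interferon-stimulated and RNA-sensing genes, b2m alone was found in the table by symbol. It encodes the light chain of MHC class I and had 25 WT reads and 82 mutant reads. That was a 3.31-fold difference (2.09 to 5.41), but 4.71-fold by FPKM. A locus whose KEGG symbol is isg20 was left out, because its product name is apoptosis-enhancing nuclease. Loci known only by a product name were also read, a choice made after the table was seen. Of the product names read here, 10 held the word interferon, 3 of them among the 6 genes and 1 more, irf3, in the lists, and all 10 were at least 2-fold higher by count, beside 68.1% of the whole table. Interferon-induced protein 44 (gene199) had 0 WT reads and 37 mutant reads. The lower limit of its ratio, by the interval used for the other genes, was 9.63-fold. With WT put at 3 counts the ratio was 12.5. An interferon-induced protein with tetratricopeptide repeats (gene23923) had 0 WT reads and 24 mutant reads. Its lower limit was 6.08-fold, and its ratio was 8.08 with WT put at 3 counts. An interferon-induced guanylate-binding protein 1-like gene (gene29312) had the most counts of the induced kind, 137 for WT and 356 for mutant embryos (2.62-fold higher, 2.15 to 3.22). The other 3 were an interferon-induced protein with tetratricopeptide repeats 5-like gene (gene22792), 2.83-fold higher by count (1.90 to 4.29) but 1.87-fold by FPKM, and a pair of interferon-induced very large GTPase 1-like genes. Of that pair, gene3220 was 3.61-fold (2.35 to 5.70) and gene25914 9.38-fold (4.30 to 24.2) higher. These families have many similar copies, and how reads were assigned among them is uncertain.

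All 8 of the 54 JAK-STAT genes found in the table were higher, beside 68.1% of the whole table. Their median log2 fold change was 1.87, against 1.61 over the listed genes that were higher. The 8 covered a shared receptor chain, further receptors, both STATs listed and feedback inhibitors. il6st, which encodes the gp130 chain through which interleukin 6 and related cytokines activate Stat3, had 431 WT reads and 1515 mutant reads (3.55-fold higher, 3.19 to 3.96). socs3b, a feedback inhibitor gene of the SOCS3 type that STAT3 induces in mammals, had 265 WT reads and 1232 mutant reads (4.70-fold higher, 4.11 to 5.38). The interval of stat3 itself, 2.03 to 2.39, lay below both.

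The other receptors were lifrb, a receptor chain for leukemia inhibitory factor, ghra, a growth hormone receptor gene, and il4r.1, an interleukin 4 receptor gene. lifrb had 25 WT reads and 84 mutant reads, 3.39-fold higher (2.15 to 5.54), and ghra 19 and 72, 3.83-fold higher (2.28 to 6.72). il4r.1 (gene4665) had 25 and 246, 9.94-fold higher (6.57 to 15.7), but 14.4-fold by FPKM. The locus il4r.1 has a tandem copy, il4r.2 (gene4662), with 42 WT reads and 122 mutant reads, so the single copies are uncertain. socs2, a feedback inhibitor of growth hormone signalling, had 22 WT reads and 97 mutant reads (4.45-fold higher, 2.78 to 7.43).

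stat5a, which acts downstream of growth hormone and other cytokine receptors, had 122 WT reads and 288 mutant reads (2.38-fold higher, 1.92 to 2.97). In the order of protein-coding genes in the RefSeq annotation of assembly GRCz12tu, stat5a is the gene next to stat3. Their folds had overlapping intervals. Of the 20 nearest protein-coding neighbours of irf1b, irf9, stat3, nfkbiaa and cxcl18b, those being 2 on each side of each gene, stat5a was the 1 whose symbol was found among the 572 listed genes with a symbol.

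All 6 of the 64 NF-kB genes found in the table were higher, beside 68.1% of the whole table. Their median log2 fold change, 1.32, lay below the 1.61 over the listed genes that were higher. bcl3, an atypical IkB protein that acts in the nucleus, had 14 WT reads and 122 mutant reads (8.80-fold higher, 5.05 to 16.6). nfkbiz, another nuclear IkB protein gene, had 134 and 277 and stood close to nfkbiaa at 2.09-fold (1.69 to 2.59). tnfrsf1a, which encodes a tumour necrosis factor receptor, had 151 and 552 (3.69-fold higher, 3.08 to 4.45). Its adaptor gene traf2b had 74 WT reads and 183 mutant reads (2.50-fold higher, 1.90 to 3.32). rel, the 1 NF-kB subunit gene found in the table by symbol, had 73 and 181 (2.50-fold higher, 1.90 to 3.33).

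Of 76 cytokine, chemokine and receptor genes, 5 were found in the table, 4 higher and 1 lower. Over the whole table, 68.1% were higher and 31.9% lower. il11a (gene27116), named from its KEGG hit, is the gene of an interleukin 6 family cytokine that signals through gp130. It had 5 WT reads and 70 mutant reads, a 14.1-fold difference (5.78 to 44.9), but 24.1-fold by FPKM. il17rd, a receptor gene that also restrains FGF signalling, had 82 and 326 (4.02-fold higher, 3.14 to 5.18), and il13ra1 61 and 180 (2.98-fold higher, 2.22 to 4.05). The lower gene was the chemokine gene ccl25b, with 43 WT reads and 9 mutant reads (4.73-fold lower, 2.27 to 11), which went opposite to cxcl18b. The product name of the ccl25b locus (gene21634) is chemokine CCL-C11a, which does not name CCL25. In mammals, CCL25 is best known for attracting lymphoid progenitors to the thymus. Among 4 product names with the word chemokine, 3 were higher, beside 68.1% of the whole table. They included a C-X-C motif chemokine 3 gene (gene24227) with 9 WT reads and 41 mutant reads (4.60-fold higher, 2.20 to 10.8). Another was a chemokine XC receptor 1-like gene (gene36407) with 3 and 55 (18.5-fold higher, 6.01 to 92.5). The word interleukin stood in 7 product names, 6 of them higher and 1 lower, beside the same 68.1% and 31.9%. The lower one was a gene named nuclear factor, interleukin 3 regulated, member 2 (gene3640) with 382 WT reads and 174 mutant reads. Of the higher ones, an interleukin-6 receptor subunit beta-like gene (gene2835), a relative of il6st by name, had 6 and 71 (12-fold higher, 5.23 to 33.7).

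**Figure D4:**
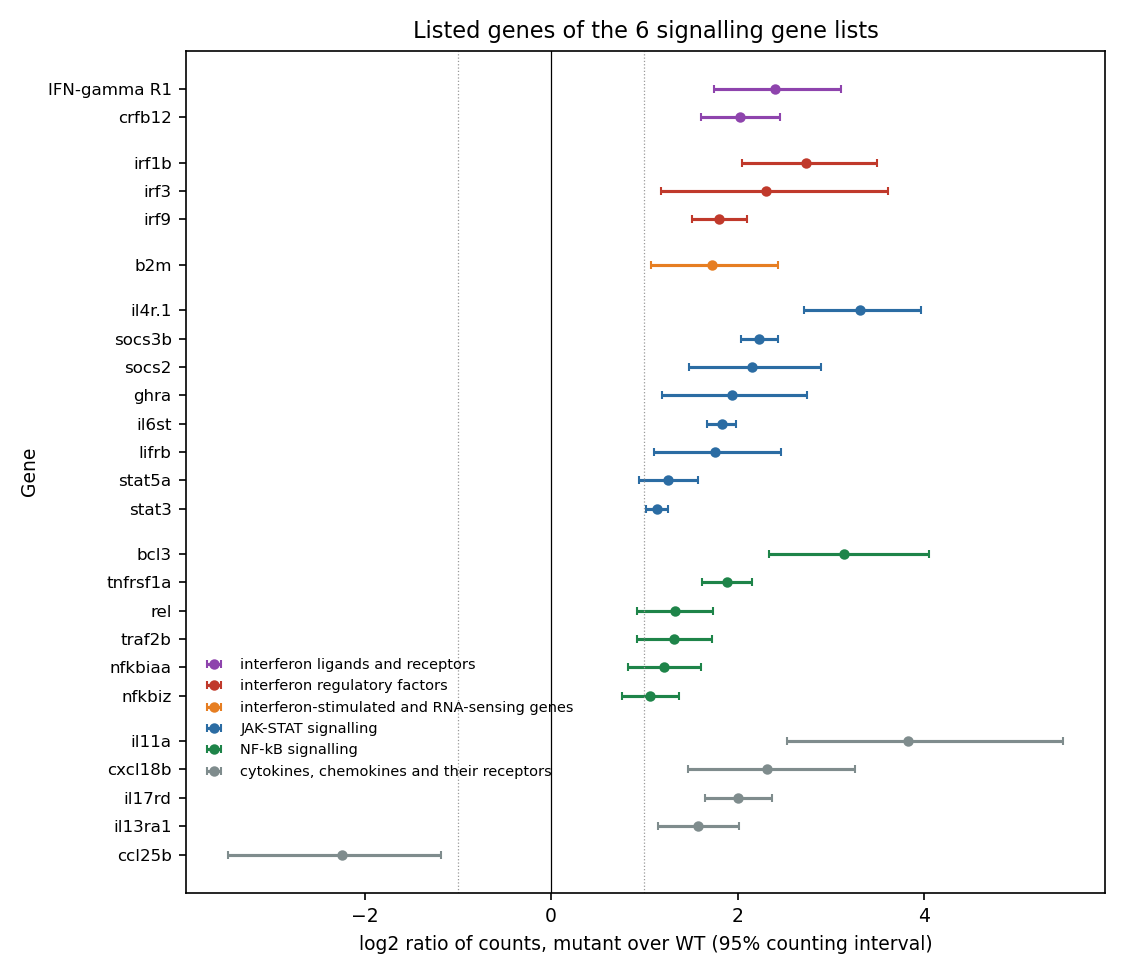
Log2 ratio of counts, mutant over WT, with 95% exact counting intervals for the 25 listed genes of the 6 signalling gene lists, coloured by list; dotted lines mark 2-fold. The genes lie to the right of 0 except ccl25b, and the intervals of rel, traf2b, nfkbiaa, nfkbiz and stat5a reach below 2-fold. With the median of all listed genes set to 0, stat3, stat5a, nfkbiaa and nfkbiz also lie below 0.

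The annotation terms of the deposited table set the transcription factors among the 6 apart from most others. irf1b, irf9 and stat3 carry the Gene Ontology term for sequence-specific DNA binding transcription factor activity, which 96 listed genes carry. Of those 96, 24 were at least 2-fold higher and 72 lower (median log2 fold change -1.19), so the 3 belong to the smaller, higher portion. Over the whole table, 68.1% were higher and 31.9% lower. Of 11 listed genes with the term immune response, 10 were higher and 1 lower, beside those same shares. cxcl18b was the 1 of the 6 among these 11.

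Markers of blood cells, also matched by symbol only, differed in both directions. Of 11 macrophage markers, spi1a alone was found in the table, with 58 WT reads and 12 mutant reads. Of 10 neutrophil markers, 5 were in the table. Lower were lyz, with 777 WT reads and 310 mutant reads, npsn, with 455 and 197, and cpa5, with 48 and 9. Higher were mmp9, with 70 and 418, and mmp13a, with 58 and 154, neither of them restricted to neutrophils. The summed level of the 5 was 117 FPKM for WT and 58.1 FPKM for mutant embryos. Most of that sum was lyz, at 88.7 FPKM for WT and 34.9 FPKM for mutant embryos. By FPKM, mmp9 at 1.37 for WT and 8.08 for mutant embryos, and mmp13a at 1.85 and 4.80, went against the sum. Of 9 erythroid markers, 8 were in the table at 10 loci, all lower, with sums of 10709 and 2545 FPKM. Beside these marker counts, 68.1% of the whole table lay at least 2-fold higher and 31.9% at least 2-fold lower. No lymphocyte marker of 8 and no periderm and epidermis marker of 8 was found by symbol, and no listed marker had 0 counts in either library. The part of cell numbers in the folds of the 6 genes was not tested.

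The genes most like each of the 6 in level were those nearest by Euclidean distance of log2(FPKM + 0.1) over the 2 libraries, among genes with a zebrafish KEGG symbol. ghrh, the growth hormone-releasing hormone gene, was nearest to both interferon gamma receptor 1 (distance 0.083) and irf1b (0.189), at 0.663 WT and 3.91 mutant FPKM. The nearest to irf9 was snx11 (0.060), to nfkbiaa the complement gene c7a (0.055), to stat3 the prostaglandin synthase gene ptgs2a (0.131) and to cxcl18b ptgdsb.2 (0.204). With only 2 libraries such likeness is a match of 2 levels and no more.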

How the data were processed

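Poly(A) RNA libraries were made with a kit that does not mark strand, per the labels' protocols, so reads of overlapping antisense genes cannot be told apart. The submitters' processing notes name GRCz10, Bowtie 0.12.2 and Cufflinks without a role; the sources used here name neither the counting tool nor the test. Per the file headers, the authors deposited raw read counts, FPKM scaled for length and library size, an FDR (an adjusted p-value) and a log2 fold change, mutant relative to WT. Library columns were matched to samples by the code in the sample title.

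Folds were ratios of deposited counts times 1.01, the scale implied by the authors' log2 fold changes across 391 genes that reach 200 counts in each library. The log2 fold change had 0.5 counts added, and log2 FPKM values 0.1. Symbols came from zebrafish KEGG hits (562 genes), updated in RefSeq for assembly GRCz12tu and used for names and gene order only, or from product or Swiss-Prot names (17 genes). The lists held 295 names; 13 matched no single current gene, and synonyms were merged. The genes named were the 6, each pathway list gene in the table, and the nearest gene by level; others were chosen after their values were seen. Members and lists were chosen with earlier results of these data known. Results for some genes are not reported here. The fold and its interval were tested on simulated Poisson counts with known folds. The simulation left out the authors' selection, so it does not show how that selection affects them. Python 3.11.15, pandas 2.3.3 and SciPy 1.17.1 were used.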

Additional observations from a re-analysis of the deposited data

How the results depend on the processing

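With 2 or 5 counts added, with raw counts, with the scale from counts per FPKM, with the authors' deposited log2 fold changes and with FPKM plus 0.1, all 6 genes stayed at least 2-fold higher; with FPKM plus 1, 5 did, as nfkbiaa came to 0.93 on the log2 scale. Their median log2 fold change ranged from 1.55 to 2.05 over these 7 settings, against 2.04. With the deposited log2 fold changes, a fold of at least 2 was fixed by the authors' selection, so that setting is no check of the count. Setting the median of all listed genes to 0, a shift of 1.31, changes values by construction, because most listed genes were selected as higher. It left 2 of the 6 at least 2-fold higher, a median of 0.73, and 5 of 25 list genes at least 2-fold higher with 1 lower. There nfkbiaa came to -0.10 and stat3 to -0.17, a reversed direction. Of all 1287 listed genes, 210 were then at least 2-fold higher and 411 lower, in place of 876 and 411. Those 210 make up 33.8% of the genes that still reached 2-fold in either direction, not of the whole table. The 876 make up 68.1% of the whole table. Of the 24 list genes at least 2-fold higher, 23 were so with FPKM plus 0.1, where nfkbiz came to 0.85, and 17 with FPKM plus 1, which left 5 of 8 JAK-STAT and 3 of 6 NF-kB genes; a larger added value shrinks the folds of low genes by construction. A minimum of 50 counts in one library left 23 list genes higher and 0 lower, since ccl25b has 43 counts at most. Shares over the whole table are not given for the FPKM settings or for this minimum, so these counts describe the list genes only. No paired analysis was possible because each genotype has 1 library. The planned motif search in promoters was not run, as no promoter sequences were used here. Library totals were unknown, so the depth of each library could not be given. The relative depth implied by counts per FPKM of well-counted genes was 0.978, mutant over WT.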
